A study of Mus musculus with 20 samples.

Results

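Gene expression was compared between day 21 and day 14 in fibroadipogenic progenitors of mice that had sham surgery, with 3 libraries at each day. The 6 libraries were taken by their labels, as the sham libraries of those days, out of 20 libraries in the series, and every gene with enough counts was tested. These stromal cells of muscle can turn into fibroblasts or into adipocytes. All mice were male and of the strain C57BL/6J, and the labels give neither age nor a pooling of animals and call the libraries of a group biological replicates. The cells were freshly sorted from hindlimb muscle as live, nucleated cells that carried SCA-1 and lacked CD31, CD45 and α7-integrin. The sham mice received no tumour cells. In the rest of the series other mice had KPCY pancreatic tumour cells put into the pancreas, and a further 4 sham libraries came from day 26, which are used below to place day 21 among the sham days and in the fits of more libraries. The library codes in the labels begin with one number in all 3 day 14 sham libraries and with another in all 3 day 21 sham libraries, so the day after surgery cannot be told apart from whatever that number stands for, or from any other preparation batch.

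In muscle, these progenitors make most of the interstitial matrix and secrete cytokines and growth factors that act on leukocytes and on satellite cells, the muscle stem cells. NF-kappaB is a transcription factor held in the cytoplasm by inhibitors such as IκBα, the product of Nfkbia. When a cytokine or tissue damage frees it, it switches on chemokines, Il6, Ptgs2 and its own inhibitors, so that the response shuts itself off. Fos and Jun proteins form AP-1, an immediate early factor whose genes are switched on within minutes by growth factors, stress and also by the digestion of a tissue into single cells.

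The sums of counts were 14.2 to 21.0 megacounts (M) per library at day 14 and 21.7 to 26.4 M at day 21. The first principal component, with 44.0% of the variance, placed the 3 libraries of each day on opposite sides. Correlations of log2 levels were 0.973 to 0.981 within a day and 0.957 to 0.970 between days. Expression is given in CPM, the count relative to the total of the library and scaled over all 20 libraries, and each set of 3 values is in the order of replicates 1, 2 and 3. A gene was called when its adjusted p was under 0.05 in edgeR's quasi-likelihood test with Benjamini-Hochberg adjustment over all genes tested, and fold changes are day 21 over day 14. Scaling was by TMM, edgeR's trimmed mean of ratios between libraries, unless another is named. The sort markers were present at both days. Ly6a, which encodes SCA-1, lay at 952, 909 and 1107 CPM at day 14 and 1092, 1211 and 1079.6 CPM at day 21 (log2 0.19 ± 0.10, adjusted p = 0.21). Pdgfra, the receptor that marks these progenitors, lay at 1232, 1362 and 1223 CPM at day 14 and 1352, 1443 and 1399 CPM at day 21 (log2 0.14 ± 0.09, adjusted p = 0.32). Pecam1, which encodes the excluded CD31, lay at 24.7, 16.5 and 8.08 CPM at day 14 and 19.4, 20 and 15.2 CPM at day 21, with overlapping groups. Ptprc, which encodes the excluded CD45, lay between 0.0401 and 1.00 CPM in the 6 libraries. None of these 4 genes was called.

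Of 13128 genes tested, 2813 were called, or 21.4%. At day 21, 1041 genes were higher (7.93% of those tested) and 1772 were lower (13.5%). Changes of 2-fold or more were called for 40 higher and 346 lower genes. With scaling to library size alone the split was 620 higher and 2227 lower, and the median of all genes moved from -0.00 to -0.08. Left out one at a time, day 14 replicate 3 and day 21 replicates 1 and 2 brought the count of calls to 1681, 1833 and 1793. The 3 libraries of one day did not overlap those of the other in 4986 genes, or 38.0%.

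The direction of change followed the base composition of the transcripts. The log2 fold change correlated across genes with the GC content of the transcript (Spearman's rho 0.55 over 12606 genes, which are not independent replicates), against -0.05 with transcript length and 0.07 with mean level. In the 10% of genes with the least GC, 33.2% to 42.8%, 721 of 1261 genes were lower at day 21 and 2 were higher. In the 10% with the most GC, 58.2% to 71.3%, 244 were higher and 19 lower. Each library's own deviation from the mean of all 20 libraries correlated with GC at -0.42 to -0.33 in the day 14 shams and at 0.23 to 0.29 in the day 21 shams. It also lay below 0 in the day 14 tumour-bearing libraries, at -0.34 to -0.14, and reached 0.08 to 0.21 in the day 26 shams.

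A second fit therefore removed from every library whatever followed GC, whatever its source. In this GC-adjusted fit 756 of 12606 genes were called (6.00%), 343 of them higher (2.72%) and 413 lower (3.28%). Both fits called 598 genes, 592 of them in the same direction, and 2107 genes were called only without the adjustment. The GC-adjusted value is therefore given beside the genes described below for day 21 against day 14, and it was chosen after the data had been seen.

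**Figure D1:**
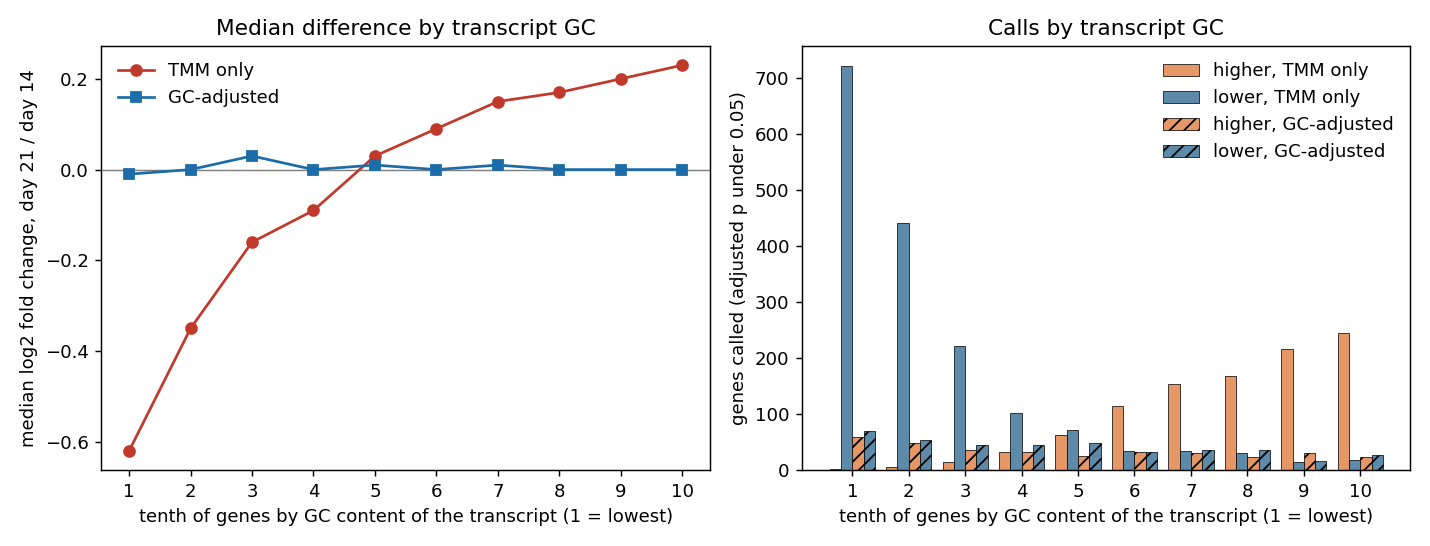
Genes were ranked by the GC content of their transcripts and cut into 10 groups of equal size (x axis, 1 = least GC). Left, the median log2 fold change of day 21 over day 14 in each group rises from -0.62 to 0.23 with TMM scaling only and stays between -0.01 and 0.03 after the GC adjustment. Right, bars count the genes called higher or lower: with TMM only, 721 lower genes fall in the group with the least GC and 244 higher genes in that with the most.

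A group of inflammatory genes was lower at day 21. Il6, Ptx3, Ptgs2, the chemokines Ccl2, Ccl7, Cxcl1, Cxcl10 and Cxcl13, the hyaluronan genes Has1 and Tnfaip6 and the inhibitors Nfkbia, Nfkbiz and Tnfaip3 were all lower, with and without the GC adjustment, and no library of one day overlapped the other. These 13 genes were picked from several lists with their changes known, so that their common direction is a description. Because several of these genes are targets of NF-kappaB, the promoters of 4 of them are shown, as RefSeq gives them for build GRCm38.p6, from 250 bases before to 50 after the start of transcription. Capitals mark matches to the NF-kappaB consensus (by name, both strands) and to the AP-1 motif TGANTCA (both strands).
Il6 promoter, chr5:30012864-30013163, plus strand: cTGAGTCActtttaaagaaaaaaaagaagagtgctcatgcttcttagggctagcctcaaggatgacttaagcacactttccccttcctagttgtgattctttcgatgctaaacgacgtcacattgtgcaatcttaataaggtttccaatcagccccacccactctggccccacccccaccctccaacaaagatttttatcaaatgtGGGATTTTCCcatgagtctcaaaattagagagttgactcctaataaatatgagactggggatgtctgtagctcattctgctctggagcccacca
Ptx3 promoter, chr3:66219637-66219936, plus strand: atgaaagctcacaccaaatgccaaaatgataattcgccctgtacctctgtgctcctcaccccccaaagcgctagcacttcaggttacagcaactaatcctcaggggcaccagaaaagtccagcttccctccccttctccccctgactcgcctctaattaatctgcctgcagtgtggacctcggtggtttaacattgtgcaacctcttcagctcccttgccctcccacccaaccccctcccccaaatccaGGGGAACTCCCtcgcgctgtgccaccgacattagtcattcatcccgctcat
Cxcl10 promoter, chr5:92348840-92349139, minus strand: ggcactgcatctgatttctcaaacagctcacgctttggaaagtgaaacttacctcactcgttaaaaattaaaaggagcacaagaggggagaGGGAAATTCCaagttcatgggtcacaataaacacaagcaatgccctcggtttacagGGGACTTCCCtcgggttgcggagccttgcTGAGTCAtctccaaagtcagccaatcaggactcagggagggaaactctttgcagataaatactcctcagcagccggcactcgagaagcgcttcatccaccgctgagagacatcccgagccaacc
Nfkbia promoter, chr12:55492598-55492897, minus strand: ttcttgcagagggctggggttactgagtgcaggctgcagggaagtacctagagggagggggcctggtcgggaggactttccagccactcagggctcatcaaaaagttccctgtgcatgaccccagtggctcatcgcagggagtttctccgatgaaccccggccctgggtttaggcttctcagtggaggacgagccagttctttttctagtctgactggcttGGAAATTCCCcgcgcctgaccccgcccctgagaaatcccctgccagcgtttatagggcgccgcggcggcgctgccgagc
Of the 13 genes, 10 had such a window and 6 of those held the NF-kappaB letters in one. They also stood in 2 of 6 genes that were higher at day 21, Fos and Fosb among Fos, Jun, Jund, Fosb, Inhbb and Inhba, and in 4.51% of all 32851 windows of 300 bases. The AP-1 letters stood in 4 of the 10, in 0 of the 6 and in 7.81% of all windows. In Il6 the NF-kappaB letters begin 44 bases before the start, at position -44, and in Nfkbia at position -29. Matches to the CRE and CArG motifs were also sought. They stood in 1 and 0 of the 10 genes, in 0 and 0 of the 6, and in 1.79% and 1.63% of all windows. Several of the 13 genes were known targets of NF-kappaB, so a share above that of all windows follows in part from the choice. It says nothing about day 21. Letters in a window are a description and show no binding.

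Il6 (chr5:30013114-30019981, plus strand, mm10) encodes the cytokine that drives the acute phase response and signals through Il6st and STAT3. It lay at 46.0, 44.4 and 28.4 CPM at day 14 and 1.5, 2.64 and 2.93 CPM at day 21 (log2 fold change -4.07 ± 0.26 (SE), adjusted p = 2.7e-06). Every day 21 library lay far below the lowest day 14 library. GC-adjusted, the change was -3.27 ± 0.26, adjusted p = 5.4e-05. Ptx3 (chr3:66219910-66225805, plus strand, mm10) encodes pentraxin 3, a soluble pattern recognition protein that also ties hyaluronan into the matrix. It lay at 149, 136 and 138 CPM at day 14 and 7.68, 10.2 and 9.71 CPM at day 21 (log2 fold change -3.94 ± 0.13 (SE), adjusted p = 6.7e-11). Its 3 values within each day were close together, and the GC adjustment left -4.07 ± 0.13, adjusted p = 8e-11. Ptgs2 (chr1:150100031-150108227, plus strand, mm10) encodes cyclooxygenase 2, the inducible enzyme of prostaglandin synthesis. It lay at 453, 318 and 315 CPM at day 14 and 52.4, 70.2 and 62.8 CPM at day 21 (log2 fold change -2.55 ± 0.16 (SE), adjusted p = 2.4e-06; GC-adjusted -2.09 ± 0.16, adjusted p = 4e-05).

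Among the chemokine genes, 8 of 18 tested were lower and 0 were higher, against 13.5% and 7.93% over all genes. The list median was -0.36 against -0.00 over all genes. After the GC adjustment 6 were lower, against 3.28% over all genes. Ccl7 and Ccl2 encode attractants of monocytes. Ccl7 lay at 57.0, 36.9 and 55.7 CPM at day 14 and 8.47, 10.9 and 7.75 CPM at day 21 (log2 -2.47 ± 0.19, adjusted p = 2.7e-06). Ccl2 lay at 74.9, 56.9 and 45.6 CPM at day 14 and 13.8, 16.9 and 11.9 CPM at day 21 (log2 -2.07 ± 0.18, adjusted p = 1.4e-05). Both were lower in every day 21 library than in any day 14 library, and their GC-adjusted changes were -2.03 ± 0.18, adjusted p = 4.6e-05 for Ccl7 and -1.70 ± 0.19, adjusted p = 0.00066 for Ccl2. Cxcl1, an attractant of neutrophils, lay at 216, 171 and 162 CPM at day 14 and 43.2, 68.6 and 43.0 CPM at day 21 (log2 -1.83 ± 0.19, adjusted p = 0.00021; GC-adjusted -1.54 ± 0.20, adjusted p = 0.0038). Cxcl13, which attracts B cells, lay at 73.0, 75.9 and 79.4 CPM at day 14 and 18.7, 18.7 and 23.4 CPM at day 21 (log2 -1.91 ± 0.13, adjusted p = 7.9e-07; GC-adjusted -1.31 ± 0.12, adjusted p = 3.2e-05). Cxcl10, an interferon-induced attractant of T cells, lay at 13.5, 17.4 and 15 CPM at day 14 and 2.32, 3.87 and 2.85 CPM at day 21 (log2 -2.35 ± 0.23, adjusted p = 1.3e-05; GC-adjusted -2.29 ± 0.23, adjusted p = 6.9e-05). The exons of Cxcl10 overlap those of Art3 on the other strand, and the use of strand in counting is not given in the sources used here, so its counts could include reads of Art3. Neutrophil genes themselves were near 0, with a summed level of at most 2.8 CPM over the list in the 6 libraries, and leukocyte and macrophage genes summed to 19.5 to 27.9 CPM at day 14 and 17.8 to 37.2 CPM at day 21, with 0 of 12 tested called.

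Of 22 tested genes of the NF-kappaB list, 8 were lower and 0 higher (list median -0.33), against 13.5% and 7.93% over all genes. After the GC adjustment 5 were lower and 0 higher, against 3.28% and 2.72%. Nfkbia lay at 285, 199 and 253 CPM at day 14 and 134, 111 and 113 CPM at day 21 (log2 -1.04 ± 0.13, adjusted p = 9.4e-05; GC-adjusted -1.22 ± 0.13, adjusted p = 0.00014). Nfkbiz, a nuclear IκB that switches on secondary targets such as Il6, lay at 178, 153 and 132 CPM at day 14 and 36, 56.9 and 50.5 CPM at day 21 (log2 -1.69 ± 0.17, adjusted p = 5.6e-05; GC-adjusted -1.69 ± 0.16, adjusted p = 0.00017). Both genes had no overlap between the days. Tnfaip3 encodes A20, an enzyme that shuts off signalling upstream of NF-kappaB. It lay at 94.8, 79.1 and 81.7 CPM at day 14 and 30.4, 42.9 and 33.4 CPM at day 21 (log2 -1.26 ± 0.13, adjusted p = 2.1e-05; GC-adjusted -1.21 ± 0.13, adjusted p = 0.00013). Bcl3, another IκB family member, was lower by less (log2 -0.73 ± 0.17, adjusted p = 0.0072; GC-adjusted -0.95 ± 0.18, adjusted p = 0.0057). Irf1, a transcription factor induced by interferon and NF-kappaB, lay at 223, 194 and 159.6 CPM at day 14 and 100.1, 136 and 113 CPM at day 21 (log2 -0.72 ± 0.14, adjusted p = 0.0022; GC-adjusted -0.89 ± 0.14, adjusted p = 0.0023). The interferon and class I list as a whole had 2 higher and 5 lower of 42 tested, against 7.93% higher and 13.5% lower over all genes.

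In the list of IL-6, STAT3 and acute phase genes, 6 of 28 tested were lower and 1 higher, against 13.5% and 7.93% over all genes. After the GC adjustment 5 were lower and 1 higher, against 3.28% and 2.72%. The ligand Il6 led the list. Among the receptors, Osmr, the oncostatin M receptor chain, was lower (139, 101 and 114 CPM against 63.8, 74.8 and 77.4 CPM; log2 -0.71 ± 0.12, adjusted p = 0.001; GC-adjusted -0.44 ± 0.12, adjusted p = 0.048). Il6st, the shared signalling chain gp130, was the higher member (522, 538 and 526 CPM against 615, 686 and 666 CPM; log2 0.31 ± 0.09, adjusted p = 0.026; GC-adjusted 0.36 ± 0.09, adjusted p = 0.029). Its call was lost when any of 3 libraries was left out, with log2 values of 0.28 to 0.36. Cish, a feedback inhibitor downstream of STAT5, was lower at low levels (6.35, 3.21 and 3.39 CPM against 1.26, 0.614 and 0.803 CPM; log2 -2.26 ± 0.43, adjusted p = 0.0017; GC-adjusted -2.46 ± 0.43, adjusted p = 0.0039).

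Several hyaluronan genes were also lower. Has1, a hyaluronan synthase, lay at 286, 168 and 199.6 CPM at day 14 and 47.2, 42.2 and 57.0 CPM at day 21 (log2 -2.16 ± 0.20, adjusted p = 0.00012; GC-adjusted -2.29 ± 0.21, adjusted p = 0.00072). Tnfaip6 encodes TSG-6, which moves heavy chains onto hyaluronan. It lay at 186, 165 and 169.9 CPM at day 14 and 36.8, 53.6 and 51.0 CPM at day 21 (log2 -1.88 ± 0.13, adjusted p = 1.9e-06; GC-adjusted -1.29 ± 0.13, adjusted p = 9.4e-05). Cd44, the hyaluronan receptor, lay at 94.4, 77.9 and 84.7 CPM at day 14 and 51.9, 61.4 and 53.6 CPM at day 21 (log2 -0.62 ± 0.11, adjusted p = 0.0012; GC-adjusted -0.59 ± 0.11, adjusted p = 0.0067). Of 18 tested members of the hyaluronan list, 6 were lower and 1 higher, against 13.5% and 7.93% over all genes. After the GC adjustment 3 of 17 were lower and 2 higher, against 3.28% and 2.72%. Has2, the other synthase expressed here, was called lower (log2 -0.57 ± 0.14, adjusted p = 0.0083), but its GC-adjusted value was 0.07 ± 0.14, adjusted p = 0.83, and the call was also lost without day 14 replicate 3.

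**Figure D2:**
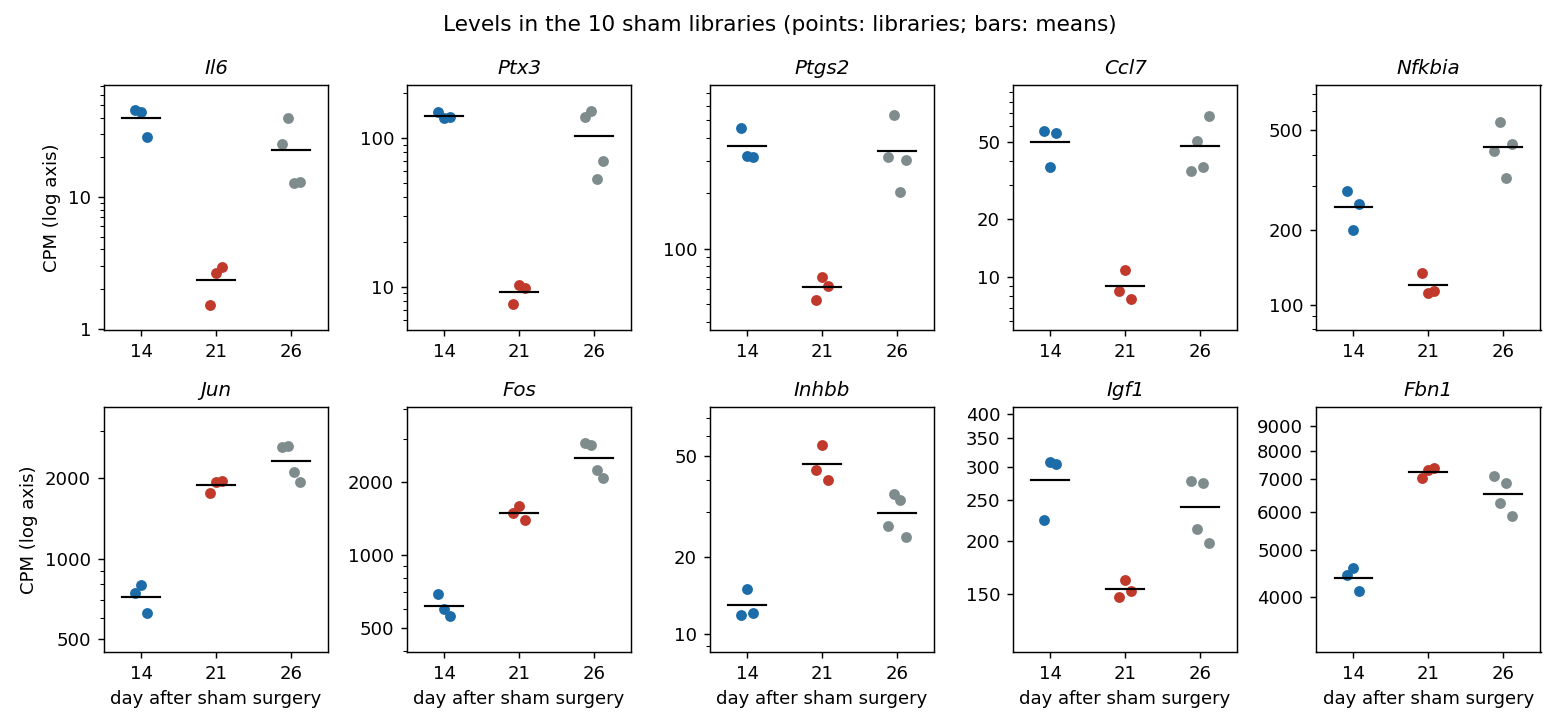
Each panel shows 1 gene in the 3, 3 and 4 sham libraries of days 14, 21 and 26 (points) with the group mean (bar), in CPM on a log axis. Il6, Ptx3, Ptgs2, Ccl7 and Nfkbia are lowest at day 21, Jun and Fos are higher at days 21 and 26 than at day 14, and Inhbb is highest at day 21.

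Immediate early genes moved in both directions. Of 37 tested, 5 were higher and 10 lower, against 7.93% and 13.5% over all genes. After the GC adjustment 4 of 35 were higher and 9 lower, against 2.72% and 3.28%. The list median was log2 -0.40, and -0.53 with the GC adjustment. With 1 library left out, 4 to 7 members were called higher and 4 to 16 lower. Of the 5 called higher without the adjustment, 4 were members of AP-1. Jun (chr4:95049034-95052222, minus strand, mm10) lay at 743, 795 and 623 CPM at day 14 and 1759, 1930.1 and 1963 CPM at day 21 (log2 fold change 1.39 ± 0.11 (SE), adjusted p = 2.4e-06; GC-adjusted 1.21 ± 0.10, adjusted p = 3.1e-05). Fos (chr12:85473890-85477273, plus strand, mm10) lay at 687, 599 and 560.4 CPM at day 14 and 1481, 1585 and 1386 CPM at day 21 (log2 fold change 1.27 ± 0.10 (SE), adjusted p = 2.7e-06; GC-adjusted 1.08 ± 0.10, adjusted p = 4e-05). For both genes every day 21 library was above every day 14 library. Jund was higher (704, 564 and 590.3 CPM against 1095, 1079.7 and 1120.3 CPM; log2 0.83 ± 0.10, adjusted p = 7.4e-05; GC-adjusted 0.54 ± 0.09, adjusted p = 0.004), as was Fosb (199, 196 and 165 CPM against 278, 315 and 283 CPM; log2 0.64 ± 0.11, adjusted p = 0.00061; GC-adjusted 0.45 ± 0.10, adjusted p = 0.018). The fifth was Ier2, an early response gene (log2 0.49 ± 0.13, adjusted p = 0.018), which was not called after the GC adjustment (0.24 ± 0.14, adjusted p = 0.34) or without day 21 replicate 2 or 3. Fosl1, a FOS family member of AP-1, was lower, at 3.65, 0.801 and 3.44 CPM at day 14 and 0.512, 0.992 and 0.763 CPM at day 21 (log2 -1.81 ± 0.57, adjusted p = 0.033; GC-adjusted -2.06 ± 0.57, adjusted p = 0.047). The groups overlapped, its call was lost without any 1 library other than day 14 replicate 2, and its exons overlap those of Ccdc85b on the other strand.

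The other lower immediate early genes included transcription factors and survival genes. Myc, a growth regulator, lay at 218, 139 and 155 CPM at day 14 and 95.0, 88.5 and 99.3 CPM at day 21 (log2 -0.86 ± 0.14, adjusted p = 0.0011; GC-adjusted -1.04 ± 0.15, adjusted p = 0.002). Nr4a2, an orphan nuclear receptor, lay at 14.7, 7.95 and 10.0 CPM at day 14 and 2.40, 5.53 and 4.09 CPM at day 21 (log2 -1.45 ± 0.31, adjusted p = 0.0046; GC-adjusted -1.36 ± 0.31, adjusted p = 0.019). Mcl1, which protects from apoptosis, lay at 404, 312 and 444 CPM at day 14 and 245, 255 and 283 CPM at day 21 (log2 -0.57 ± 0.12, adjusted p = 0.0046; GC-adjusted -0.74 ± 0.13, adjusted p = 0.0048). Csrnp1, an AXIN1-induced nuclear protein, was also lower (log2 -0.76 ± 0.13, adjusted p = 0.00099; GC-adjusted -0.99 ± 0.14, adjusted p = 0.00087). Atf3, a stress-induced factor, was lower by less (log2 -0.47 ± 0.12, adjusted p = 0.011; GC-adjusted -0.53 ± 0.12, adjusted p = 0.016) and lost its call without day 21 replicate 1 or replicate 3. Ier3, an early response gene that modulates NF-kappaB, was lower (log2 -0.88 ± 0.24, adjusted p = 0.029; GC-adjusted -1.05 ± 0.24, adjusted p = 0.04) and lost its call when any 1 of the day 21 libraries was left out (log2 -1.05 to -0.53 over the 6 sets of 5 libraries). All 6 were also called lower in the GC-adjusted fit.

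Several chaperone and stress genes were lower. In the heat shock list 11 of 28 tested were lower and 0 higher, against 13.5% and 7.93% over all genes. After the GC adjustment 4 were lower and 1 higher, against 3.28% and 2.72%. Dnajb4, a cochaperone of Hsp70, lay at 104, 83.8 and 107 CPM at day 14 and 41.0, 48.1 and 44.1 CPM at day 21 (log2 -1.14 ± 0.12, adjusted p = 1.6e-05; GC-adjusted -0.77 ± 0.11, adjusted p = 0.0015). Dnajb1, a heat-induced cochaperone, lay at 171, 183 and 169 CPM at day 14 and 117, 129.7 and 89.6 CPM at day 21 (log2 -0.64 ± 0.12, adjusted p = 0.002; GC-adjusted -0.76 ± 0.12, adjusted p = 0.0023). Hspd1, the mitochondrial chaperonin, was lower too (log2 -0.54 ± 0.13, adjusted p = 0.0079; GC-adjusted -0.64 ± 0.13, adjusted p = 0.01), but its exons overlap those of Hspe1 on the other strand. Ppp1r15a encodes GADD34, which ends the integrated stress response, and lay at 189.7, 176 and 163 CPM at day 14 and 92.5, 113 and 96.8 CPM at day 21 (log2 -0.80 ± 0.11, adjusted p = 0.00014; GC-adjusted -0.99 ± 0.11, adjusted p = 0.00013). The glucocorticoid response list had 1 lower and 0 higher of 23 tested, against 13.5% and 7.93% over all genes. Its median was nevertheless log2 -0.55, and -0.59 with the GC adjustment, against -0.00 and 0.00 over all genes. Its summed level spread widely at day 14, at 3688.2 to 7410.4 CPM, and lay at 3723.0 to 5199.3 CPM at day 21.

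The largest rise at day 21 among genes whose mean log2 CPM was at least 3 and that had no overlap between the days was in Inhbb, the βB subunit of activin and inhibin. Inhbb (chr1:119415465-119422248, minus strand, mm10) lay at 11.9, 15 and 12.1 CPM at day 14 and 44.0, 55.3 and 40.1 CPM at day 21 (log2 fold change 1.84 ± 0.16 (SE), adjusted p = 3.3e-06; GC-adjusted 1.60 ± 0.16, adjusted p = 5.1e-05). Inhba, the βA subunit, lay at 3.89, 5.34 and 4.12 CPM at day 14 and 8.71, 11.2 and 9.91 CPM at day 21 (log2 1.16 ± 0.23, adjusted p = 0.0023; GC-adjusted 1.3 ± 0.23, adjusted p = 0.0041). For both subunits the lowest day 21 library was above the highest day 14 library. Activins signal through SMAD2 and SMAD3, and bone morphogenetic proteins induce Id genes. Id3 lay at 122, 126 and 124 CPM at day 14 and 75.2, 112 and 84.3 CPM at day 21 (log2 -0.46 ± 0.13, adjusted p = 0.02; GC-adjusted -0.64 ± 0.13, adjusted p = 0.0096) and lost its call without day 14 replicate 3, day 21 replicate 1 or day 21 replicate 3. Tgfbr1, the type I receptor for TGF-β, was called lower (log2 -0.73 ± 0.13, adjusted p = 0.00096), but not after the GC adjustment (-0.35 ± 0.13, adjusted p = 0.12). Over the whole list of TGF-β, BMP and activin genes 10 of 45 were higher and 8 lower, against 7.93% and 13.5% over all genes. After the GC adjustment 2 were higher and 2 lower, shares near the 2.72% and 3.28% over all genes. Fam78a, a gene of unknown role, and Xylt1, which starts glycosaminoglycan chains on proteoglycans, were the next largest rises. Fam78a lay at 3.08, 5.74 and 3.34 CPM at day 14 and 16.4, 12.3 and 9.63 CPM at day 21 (log2 1.67 ± 0.27, adjusted p = 0.00069; GC-adjusted 1.44 ± 0.27, adjusted p = 0.0065), and shares exon bases with Nup214 on the other strand. Xylt1 lay at 4.50, 2.87 and 6.10 CPM at day 14 and 13.1, 18.9 and 11 CPM at day 21 (log2 1.66 ± 0.28, adjusted p = 0.00087; GC-adjusted 1.51 ± 0.28, adjusted p = 0.0067).

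Many matrix genes were higher at day 21. Collagens were higher in 16 of 29 tested genes and lower in 1, Col6a5 (log2 -1.02 ± 0.29, adjusted p = 0.026; GC-adjusted -1.02 ± 0.29, adjusted p = 0.062; lost in 4 of the 6 fits that left out 1 library), with a list median of 0.39. Matrix glycoproteins and proteoglycans were higher in 22 of 47 and lower in 4, with a list median of 0.34. Over all genes 7.93% were higher and 13.5% lower. After the GC adjustment the counts were 6 and 0 for the collagens and 14 and 0 for the glycoproteins, with medians of 0.27 and 0.21. Over all genes 2.72% were then higher and 3.28% lower. In a fit of all 20 libraries, which shares 1 spread with the tumour-bearing groups, 0 collagens and 2 glycoproteins were called higher. In that fit none of the 9 collagens described next was called, while their fold changes have the same direction. Col1a1 and Col1a2 encode the chains of type I collagen, the main fibre of connective tissue. Col1a2 lay at 10664, 9393 and 8978 CPM at day 14 and 13269.9, 11434 and 14350.0 CPM at day 21 (log2 0.43 ± 0.10, adjusted p = 0.0085; GC-adjusted 0.62 ± 0.10, adjusted p = 0.003). Col1a1 lay at 7926, 6879.7 and 5938 CPM at day 14 and 9989, 9018 and 11529 CPM at day 21 (log2 0.56 ± 0.12, adjusted p = 0.0041), and its call was lost in the GC-adjusted fit (0.36 ± 0.12, adjusted p = 0.088). The groups did not overlap for either chain. Col3a1, the chain of type III collagen, was called higher (log2 0.39 ± 0.11, adjusted p = 0.021), but not after the GC adjustment (0.37 ± 0.12, adjusted p = 0.076), nor when day 14 replicate 2, day 14 replicate 3, day 21 replicate 1 or day 21 replicate 3 was left out. Col5a1, which starts collagen fibrils, lay at 2182, 1973 and 1843 CPM at day 14 and 3172, 2815 and 3343 CPM at day 21 (log2 0.64 ± 0.10, adjusted p = 0.00048; GC-adjusted 0.44 ± 0.10, adjusted p = 0.019). Col6a3, of the beaded filaments around cells, lay at 2839.6, 2466 and 2272 CPM at day 14 and 3722, 3392 and 4002 CPM at day 21 (log2 0.55 ± 0.10, adjusted p = 0.0018; GC-adjusted 0.39 ± 0.10, adjusted p = 0.039). Col12a1, on the surface of fibrils, lay at 45.6, 41.6 and 42.7 CPM at day 14 and 50.3, 66.2 and 61.4 CPM at day 21 (log2 0.45 ± 0.12, adjusted p = 0.016; GC-adjusted 0.50 ± 0.12, adjusted p = 0.023) and lost its call without day 21 replicate 2, day 21 replicate 3 or day 14 replicate 3. Col15a1, of the basement membrane zone, lost its call narrowly with the adjustment (log2 0.58 ± 0.12, adjusted p = 0.0027; GC-adjusted 0.38 ± 0.11, adjusted p = 0.059). Col8a1 was called only with it (0.57 ± 0.13, adjusted p = 0.024). Col16a1 varied widely at day 21, at 29.7, 142 and 42.6 CPM against 24.2, 28.7 and 24.7 CPM at day 14, and was not called (log2 1.46 ± 0.71, adjusted p = 0.24; GC-adjusted 1.23 ± 0.71, adjusted p = 0.42).

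Several elastic fibre and basement membrane genes were called higher in both fits, though Col15a1, above, and Loxl1, below, were not. Fbn1 (chr2:125300594-125507993, minus strand, mm10), which encodes the microfibril protein fibrillin 1, lay at 4447, 4596 and 4117 CPM at day 14 and 7025, 7305 and 7373 CPM at day 21 (log2 fold change 0.72 ± 0.09 (SE), adjusted p = 7.4e-05; GC-adjusted 0.61 ± 0.09, adjusted p = 0.0012). Eln, tropoelastin, lay at 489, 517 and 415 CPM at day 14 and 969, 753 and 724 CPM at day 21 (log2 0.78 ± 0.12, adjusted p = 0.00047; GC-adjusted 0.55 ± 0.12, adjusted p = 0.012). Ltbp4, which ties latent TGF-β to microfibrils, lay at 2026, 1889.6 and 1776 CPM at day 14 and 3249, 3364 and 3148 CPM at day 21 (log2 0.78 ± 0.09, adjusted p = 5.7e-05; GC-adjusted 0.53 ± 0.09, adjusted p = 0.0033). All 3 genes were higher in each day 21 library than in any day 14 library. Tnxb, tenascin X, lay at 3926, 3788 and 3131 CPM at day 14 and 6305, 5869 and 6733 CPM at day 21 (log2 0.80 ± 0.10, adjusted p = 0.0001; GC-adjusted 0.56 ± 0.10, adjusted p = 0.004). Hspg2, the basement membrane proteoglycan perlecan, lay at 2954, 2439 and 2151 CPM at day 14 and 4251, 4195 and 4486 CPM at day 21 (log2 0.78 ± 0.11, adjusted p = 0.00021; GC-adjusted 0.54 ± 0.11, adjusted p = 0.008). Lamc1, the γ1 chain of laminin, lay at 2268, 2143 and 2110.2 CPM at day 14 and 3033, 2933 and 3219 CPM at day 21 (log2 0.49 ± 0.09, adjusted p = 0.0013; GC-adjusted 0.67 ± 0.09, adjusted p = 0.00066). Fbln2, an elastic fibre glycoprotein, was also higher in both (log2 0.62 ± 0.09, adjusted p = 0.00031; GC-adjusted 0.41 ± 0.09, adjusted p = 0.016). In the fit of all 20 libraries Fbn1, Eln, Ltbp4, Hspg2 and Lamc1 were not called (adjusted p = 0.34, 0.3, 0.22, 0.19 and 0.17), whereas Tnxb and Fbln2 were (adjusted p = 0.046 and 0.018). Fn1, fibronectin, lay at 6917, 7950.1 and 7180.4 CPM at day 14 and 9799.8, 9486 and 11372 CPM at day 21 (log2 0.47 ± 0.10, adjusted p = 0.0033) and was not called after the GC adjustment (0.33 ± 0.10, adjusted p = 0.063).

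**Figure D3:**
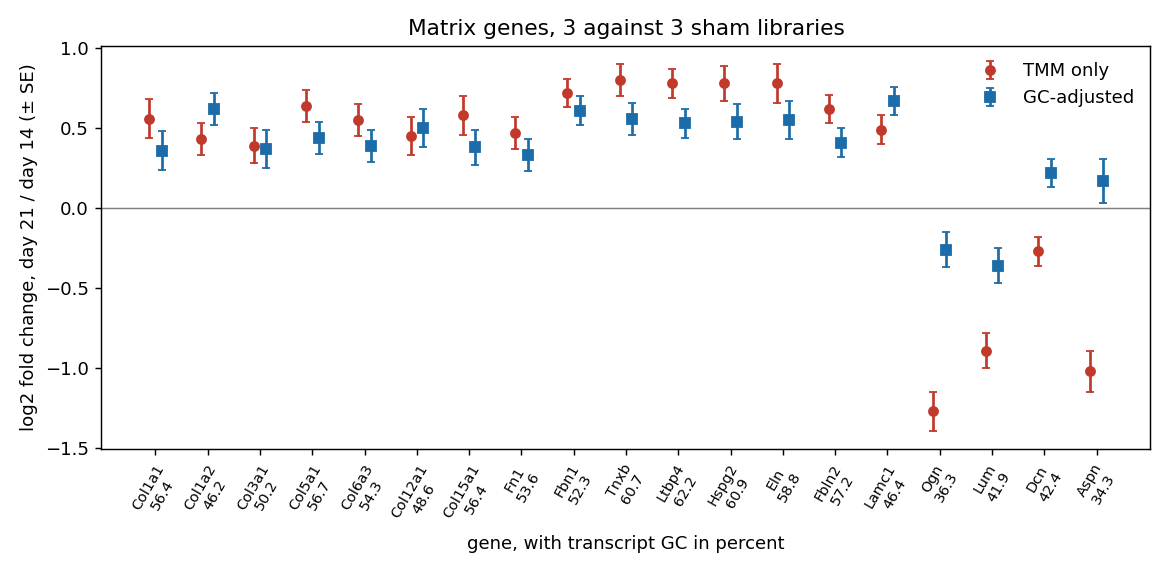
Log2 fold changes of day 21 over day 14 (points, with SE as error bars) for 19 matrix genes, with TMM scaling only (circles) and after the GC adjustment (squares), and the GC content of each transcript in percent under its name. The first 15 genes lie above 0 in both fits, while Ogn and Lum move towards 0 and Dcn and Aspn cross it after the adjustment.

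The 4 members of the glycoprotein and proteoglycan list called lower were small leucine-rich proteoglycans with little GC in their transcripts. Ogn, osteoglycin, with 36.3% GC, lay at 1444, 1770.0 and 2040.0 CPM at day 14 and 743, 697 and 733 CPM at day 21 (log2 fold change -1.27 ± 0.12 (SE), adjusted p = 6.9e-06). Its GC-adjusted value was -0.26 ± 0.11, adjusted p = 0.17. Lum, lumican, with 41.9% GC, lay at 1321, 1175 and 1488 CPM at day 14 and 687, 815 and 655 CPM at day 21 (log2 -0.89 ± 0.11, adjusted p = 9.5e-05; GC-adjusted -0.36 ± 0.11, adjusted p = 0.07). Aspn, asporin, with 34.3% GC, turned from -1.02 to 0.17 ± 0.14, adjusted p = 0.51. Dcn, decorin, with 42.4% GC, turned from -0.27 to 0.22 ± 0.09, adjusted p = 0.18, and its call was also lost when any of the 6 libraries was left out. None of the 4 was called in the GC-adjusted fit.

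Enzymes that modify or cut collagen gave a similar split. Of 30 tested, 12 were higher and 2 lower without the GC adjustment, against 7.93% and 13.5% over all genes. With the adjustment 2 were higher and 1 lower, against 2.72% and 3.28%. Adamts2, which removes the N-propeptide of procollagen, was higher in both (621, 587 and 584 CPM against 928, 849 and 987 CPM; log2 0.62 ± 0.10, adjusted p = 0.00036; GC-adjusted 0.48 ± 0.10, adjusted p = 0.0082). Loxl1, which cross-links elastin, was called only without it (log2 0.44 ± 0.09, adjusted p = 0.0039; GC-adjusted 0.20 ± 0.09, adjusted p = 0.22). Plod2, a lysyl hydroxylase, was called lower only without it (log2 -0.62 ± 0.18, adjusted p = 0.03; GC-adjusted -0.12 ± 0.18, adjusted p = 0.74), and its call was lost in 5 of the 6 sets of 5 libraries.

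**Figure D4:**
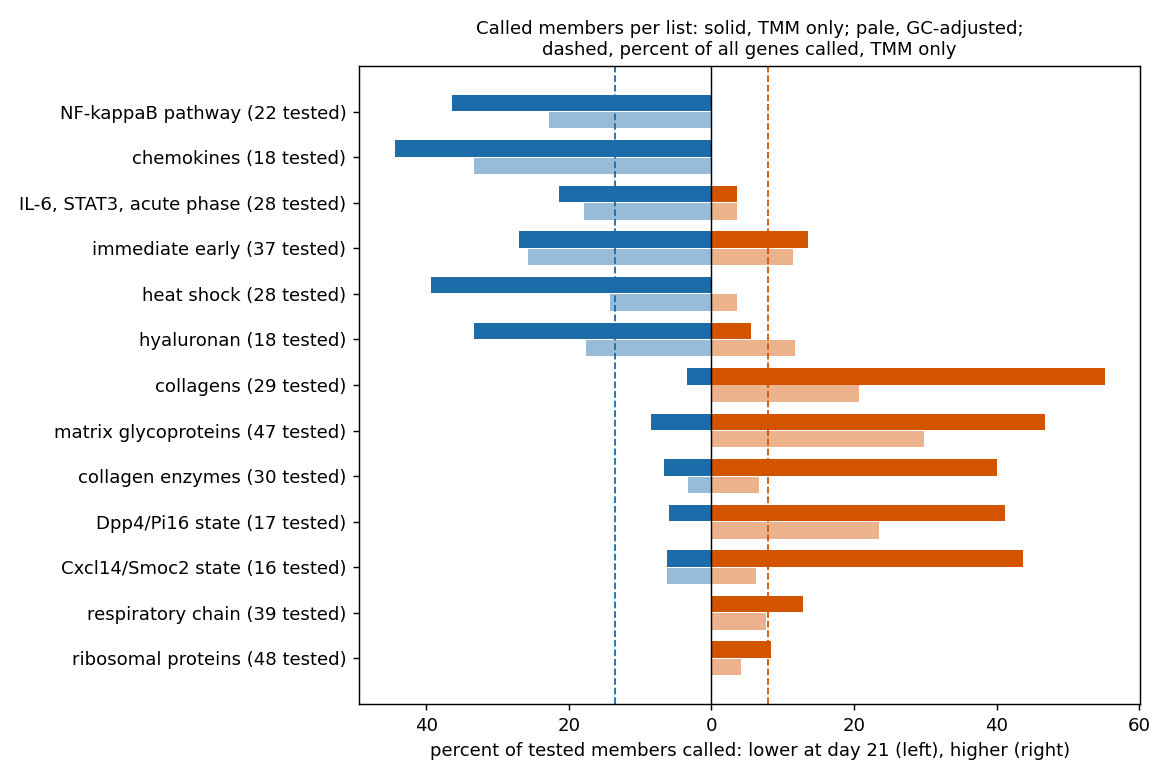
For 13 gene lists, bars give the percent of tested members called lower (left) or higher (right) at day 21, with TMM scaling only (solid) and after the GC adjustment (pale). Dashed lines mark the percent of all genes called without the adjustment, 13.5 lower and 7.93 higher. Chemokine and NF-kappaB lists lie to the left and collagen and matrix lists to the right, and the longer bar of each list is shorter after the adjustment.

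Several genes of the progenitor states were higher, with calls that were lost in the fit of all 20 libraries. In the list for the Dpp4 and Pi16 state, an adventitial progenitor state, 7 of 17 were higher and 1 lower. Over all genes 7.93% were higher and 13.5% lower. After the GC adjustment 4 were higher and 0 lower, against 2.72% and 3.28%. Dact2 lay at 131, 132 and 137 CPM at day 14 and 194, 225 and 223 CPM at day 21 (log2 0.68 ± 0.10, adjusted p = 0.00026; GC-adjusted 0.45 ± 0.10, adjusted p = 0.016). Cd248, endosialin, lay at 988, 1272 and 1048 CPM at day 14 and 1747, 1695 and 1684 CPM at day 21 (log2 0.63 ± 0.10, adjusted p = 0.00068; GC-adjusted 0.39 ± 0.10, adjusted p = 0.04). Pi16 lay at 2034, 2793 and 2669.8 CPM at day 14 and 4072, 3473 and 4019 CPM at day 21 (log2 0.62 ± 0.12, adjusted p = 0.0021), just short of a call after the adjustment (0.40 ± 0.12, adjusted p = 0.06). Cd55, a complement inhibitor of the same list, turned from -0.33 to 0.30 ± 0.11, adjusted p = 0.12, and its call was also lost without day 14 replicate 3, day 21 replicate 1 or day 21 replicate 3. In the list for the Cxcl14 and Smoc2 state 7 of 16 were higher and 1 lower, against 7.93% and 13.5% over all genes. After the adjustment 1 was higher and 1 lower, against 2.72% and 3.28%. Smoc2, a matricellular protein, was the one that stayed higher (2562, 2412 and 2371 CPM against 3577, 3204 and 2829 CPM; log2 0.39 ± 0.10, adjusted p = 0.012; GC-adjusted 0.44 ± 0.10, adjusted p = 0.019), and it lost its call without day 21 replicate 1. Thy1 was called higher only without the adjustment (log2 0.42 ± 0.10, adjusted p = 0.0062; GC-adjusted 0.24 ± 0.09, adjusted p = 0.15), and Cd34 only with it (0.32 ± 0.09, adjusted p = 0.047). In the fit of all 20 libraries Dact2, Cd248, Pi16, Smoc2 and Thy1 were not called (adjusted p = 0.62, 0.68, 0.67, 0.37 and 0.82). In bulk samples a change in the share of a cell state and a change of RNA per cell cannot be told apart.

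Some growth factor and IGF axis genes moved in each direction. In the list of cytokines and growth factors 7 of 25 tested were lower and 1 higher (list median -0.14), against 13.5% and 7.93% over all genes. After the GC adjustment 3 of 24 were lower and 0 higher (median -0.01), against 3.28% and 2.72%. In the list of the IGF axis 2 of 16 tested were lower, near the 13.5% over all genes, and 3 were higher, against 7.93%. After the GC adjustment 2 were lower and 1 higher, against 3.28% and 2.72%. Igf1, the main local growth factor for muscle, lay at 224, 308 and 305 CPM at day 14 and 147, 162 and 152 CPM at day 21 (log2 fold change -0.86 ± 0.12 (SE), adjusted p = 0.00021; GC-adjusted -0.85 ± 0.12, adjusted p = 0.00095). Every day 21 library was below every day 14 library. Igf2r, which clears IGF2, was higher (307, 336 and 304 CPM against 446, 456 and 467 CPM; log2 0.53 ± 0.09, adjusted p = 0.0011; GC-adjusted 0.46 ± 0.09, adjusted p = 0.0094). Igfbp3, an IGF carrier, was called higher only without the GC adjustment (log2 0.51 ± 0.12, adjusted p = 0.0064; GC-adjusted 0.36 ± 0.12, adjusted p = 0.088). Kitl, the ligand of KIT, was lower (48.2, 36.1 and 31.4 CPM against 13.9, 15.8 and 19.5 CPM; log2 -1.23 ± 0.18, adjusted p = 0.00026; GC-adjusted -1.07 ± 0.17, adjusted p = 0.0029). The hexokinases went in opposite directions. Hk2, the inducible form, lay at 82.6, 54.7 and 61.2 CPM at day 14 and 28.9, 21.5 and 21.6 CPM at day 21 (log2 -1.46 ± 0.17, adjusted p = 7.4e-05; GC-adjusted -1.59 ± 0.17, adjusted p = 0.00016). Hk1, the constitutive form, lay at 87.3, 95.0 and 76.9 CPM at day 14 and 124, 134 and 119 CPM at day 21 (log2 0.54 ± 0.11, adjusted p = 0.0025; GC-adjusted 0.46 ± 0.11, adjusted p = 0.019). Genes of the respiratory chain were higher in 5 of 39 and lower in 0, and ribosomal protein genes in 4 of 48 and 0. The shares over all genes were 7.93% higher and 13.5% lower, and the ribosomal share of higher genes was near the former. After the GC adjustment 3 of 39 and 2 of 48 were higher and 0 lower in each, against 2.72% and 3.28%. With 1 library left out, 0 to 7 respiratory chain genes and 1 to 8 ribosomal protein genes were called higher. In the clock list 5 of 24 tested were lower and 0 higher, against 13.5% and 7.93% over all genes. After the GC adjustment 3 were lower and 0 higher, against 3.28% and 2.72%. Nr1d2, which encodes REV-ERBβ, lay at 159, 101 and 107 CPM at day 14 and 46.3, 35.4 and 60.8 CPM at day 21 (log2 -1.36 ± 0.24, adjusted p = 0.0062; GC-adjusted -1.10 ± 0.23, adjusted p = 0.037), and Clock turned from -0.49 to 0.06 ± 0.10, adjusted p = 0.78. Ddx5, an RNA helicase and one of the largest falls in CPM, lay at 1269.9, 1149.7 and 1355 CPM at day 14 and 728, 684 and 831 CPM at day 21 (log2 -0.75 ± 0.10, adjusted p = 0.00017), with -0.34 ± 0.10, adjusted p = 0.05 after the GC adjustment, where it was not called. Zbtb20, a transcriptional repressor, was called higher (log2 1.06 ± 0.30, adjusted p = 0.042), but not with the GC adjustment (1.09 ± 0.29, adjusted p = 0.078), and not when any of the libraries but day 21 replicate 1 was left out.

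Some adipocyte genes were lower, and Cfd, Plin4 and Car3, described next, were at low levels. In the list of adipogenic and lipid genes, which holds these 3, 6 of 29 tested were lower and 3 higher, with a list median of -0.04. Over all genes 13.5% were lower and 7.93% higher. After the GC adjustment 5 were lower and 0 higher, against 3.28% and 2.72%. Lpl, another lower member, was one of the largest called falls in CPM over all genes, and its values are not given here. Cfd, which encodes adipsin, had 62 counts in the 3 day 14 libraries (16, 18 and 28) and 0 counts at day 21, which is at least 26.7-fold lower, taking 3 counts over the group as the limit that a count of 0 allows. Its adjusted p was 0.001, and 0.0034 with the GC adjustment. Plin4, a lipid droplet coat protein, lay at 6.35, 6.34 and 8.08 CPM at day 14 and 1.77, 1.61 and 2.61 CPM at day 21 (log2 -1.79 ± 0.30, adjusted p = 0.00064; GC-adjusted -1.98 ± 0.30, adjusted p = 0.0017). Car3, carbonic anhydrase 3, lay at 5.12, 7.01 and 3.65 CPM at day 14 and 1.69, 0.992 and 1.00 CPM at day 21 (log2 -2.08 ± 0.37, adjusted p = 0.0012; GC-adjusted -1.92 ± 0.37, adjusted p = 0.008). In the fit of all 20 libraries Cfd, Plin4 and Car3 were not called (adjusted p = 0.3, 0.052 and 0.11). The list of adipocyte markers summed to 19.2 to 22.8 CPM at day 14 and 16.0 to 20.4 CPM at day 21, and 2 of 4 tested members, Cfd and Car3, were lower. Among the other cell types, 1 of 18 tested endothelial genes was called, Tek, a receptor that was abundant in all 6 libraries, at 355, 396 and 367 CPM at day 14 and 481, 455 and 498 CPM at day 21 (log2 0.36 ± 0.10, adjusted p = 0.014; GC-adjusted 0.48 ± 0.09, adjusted p = 0.008). Its call was lost without day 21 replicate 1 or day 14 replicate 3. The endothelial list summed to 425.0 to 545.3 CPM at day 14 and 581.3 to 617.4 CPM at day 21, while Pecam1 overlapped between the days. Tek made up most of these sums and is also in the list for the Dpp4 and Pi16 state. The endothelial list median was log2 -0.24, and -0.32 with the GC adjustment. Of mural genes 1 of 10 was called, Cspg4, at 70.5, 69.4 and 56.8 CPM at day 14 and 124, 144 and 117 CPM at day 21 (log2 0.97 ± 0.12, adjusted p = 7.2e-05; GC-adjusted 0.75 ± 0.11, adjusted p = 0.0018), and the mural list summed to 468.8 to 646.0 CPM at day 14 and 722.2 to 817.8 CPM at day 21. Itga7, the excluded α7-integrin, lay at 2.80, 3.27 and 1.83 CPM at day 14 and 5.32, 4.30 and 5.42 CPM at day 21 (log2 0.93 ± 0.31, adjusted p = 0.042), was not called with the GC adjustment (0.73 ± 0.30, adjusted p = 0.18), and lost its call in 5 of the 6 sets of 5 libraries. Among myofibre genes 1 of 16 was called, Tnnt3 (log2 -0.88 ± 0.27, adjusted p = 0.037; GC-adjusted -1.01 ± 0.27, adjusted p = 0.049; lost in 5 of the 6 sets of 5 libraries), with a list sum of 43.3 to 150.0 CPM at day 14 and 47.0 to 72.5 CPM at day 21. The part of these other cell types in the changes above was not tested.

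A fit of all 20 libraries takes 1 spread from all 6 groups, the tumour-bearing ones included, and called 1204 genes between the same sham days. Of the 95 genes given with values here, 56 lost their call in it. Ly6a, Pdgfra, Cd34, Pecam1, Ptprc, Col8a1 and Col16a1 are among the 95 but had no call to lose. Il6, Ptx3, Ptgs2, Ccl2, Ccl7, Cxcl1, Cxcl10, Has1, Tnfaip6, Nfkbiz, Nfkbia, Jun, Fos, Jund, Inhbb, Igf1, Hk2 and Kitl kept it (adjusted p = 0.0043 for Il6, 0.0036 for Fos, 0.0022 for Inhbb and 0.031 for Igf1). Cxcl13, Tnfaip3, Inhba, Fosb, Myc, Irf1, Ppp1r15a and Cspg4 lost it (adjusted p = 0.061, 0.09, 0.09, 0.37, 0.19, 0.26, 0.1 and 0.45). In a fit of the 10 sham libraries Fosb, Irf1, Atf3, Id3, Nr1d2 and Col3a1 were among 11 genes that lost theirs.

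Against the mean of day 14 and day 26, day 21 differed in 1258 of 13391 genes (9.39%) over the 10 sham libraries, with 440 higher (3.29%) and 818 lower (6.11%). With the GC adjustment the counts were 168 of 12869 (1.31%), with 57 higher (0.443%) and 111 lower (0.863%). Without day 21 replicate 1, 2 or 3 the count of calls was 507, 363 and 804, and without day 14 replicate 3 it was 797. This contrast shares the 6 libraries described above and is no independent support for them. It asks whether a gene at day 21 differed from the mean of the other sham days. A gene that stood apart at day 21 and one that changed by day 21 and then stayed can both be called. The day 26 levels are therefore given beside it. The inflammatory genes given here stood apart over the 10 sham libraries. At day 26 Il6 lay at 12.8 to 40.0 CPM, Ptx3 at 52.6 to 150.3 CPM and Ptgs2 at 203 to 533 CPM. All of these day 26 values were above every day 21 value of the same gene. The contrast was log2 -3.66 ± 0.51, adjusted p = 0.006 for Il6, log2 -3.70 ± 0.41, adjusted p = 0.003 for Ptx3 and log2 -2.49 ± 0.31, adjusted p = 0.0035 for Ptgs2. GC-adjusted, it was -3.20, adjusted p = 0.024 for Il6, -3.78, adjusted p = 0.011 for Ptx3 and -2.23, adjusted p = 0.013 for Ptgs2. Ccl2 lay at 44.7 to 62.3 CPM at day 26 (log2 -1.96 ± 0.18, adjusted p = 0.00017), Ccl7 at 35.3 to 67.8 CPM (log2 -2.42 ± 0.25, adjusted p = 0.0007) and Cxcl1 at 126 to 263 CPM (log2 -1.76 ± 0.28, adjusted p = 0.0075). Cxcl13 lay at 39.3 to 73.5 CPM (log2 -1.59 ± 0.18, adjusted p = 0.00057). Nfkbia reached 323 to 541 CPM, above its day 14 libraries as well (log2 -1.43 ± 0.15, adjusted p = 0.0004; GC-adjusted -1.55, adjusted p = 0.001).

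Of the 20 genes described for this contrast, Fos, Fosb and Col1a2 had no call to lose. In the fit of all 20 libraries 10 of the others lost theirs. Il6, Ptx3, Ptgs2, Ccl7, Cxcl1, Nfkbia and Inhbb kept it (adjusted p = 0.028, 0.0022, 0.0022, 0.02, 0.04, 0.0099 and 0.029). Ccl2, Cxcl13, Inhba, Igf1, Myc, Hk2, Kitl, Jun, Fbn1 and Eln lost it (adjusted p = 0.064, 0.17, 0.2, 0.082, 0.13, 0.16, 0.27, 0.18, 0.67 and 0.58).

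Igf1 returned at day 26 to 198 to 278 CPM (log2 -0.74 ± 0.13, adjusted p = 0.0035; GC-adjusted -0.75, adjusted p = 0.012). Hk2 lay at 31.0 to 54.0 CPM (log2 -1.15 ± 0.18, adjusted p = 0.0039), and Myc at 155 to 291 CPM (log2 -1.07 ± 0.20, adjusted p = 0.01), whose call was lost without day 21 replicate 2. Kitl stayed low, at 15.4 to 24.0 CPM, overlapping day 21 (log2 -0.69 ± 0.17, adjusted p = 0.018; GC-adjusted -0.61, adjusted p = 0.079), and its call was lost without day 21 replicate 1 or 2. On the side of the rises, Inhbb at 24.1 to 35.3 CPM and Inhba at 4.58 to 7.32 CPM were lower again at day 26 than in any day 21 library. Their contrasts were log2 1.25 ± 0.13, adjusted p = 0.00017 for Inhbb and log2 0.94 ± 0.18, adjusted p = 0.0057 for Inhba, with 1.09, adjusted p = 0.001 and 1.00, adjusted p = 0.014 after the GC adjustment. Fos did not stand apart. It lay at 2072 to 2882 CPM at day 26, above every day 21 library (log2 0.27 ± 0.11, adjusted p = 0.13). Fosb behaved likewise, at 351 to 784 CPM (log2 -0.20 ± 0.21, adjusted p = 0.62). Jun lay at 1941 to 2650.0 CPM (log2 0.55 ± 0.11, adjusted p = 0.0057; GC-adjusted 0.43, adjusted p = 0.064), overlapping day 21. Of the matrix genes, Fbn1 lay at 5880.1 to 7117 CPM (log2 0.45 ± 0.08, adjusted p = 0.005; GC-adjusted 0.37, adjusted p = 0.039), Eln at 533 to 818 CPM (log2 0.53 ± 0.15, adjusted p = 0.036; GC-adjusted 0.38, adjusted p = 0.18) and Col1a2 at 9275 to 13260.0 CPM (log2 0.32 ± 0.11, adjusted p = 0.084). The day 26 ranges of all 3 overlapped those of day 21, and Col1a2 was not called. The call of Eln was lost when any day 21 library, day 14 replicate 1 or day 14 replicate 3 was left out. Between days 21 and 26 alone no test was run.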

How the data were processed

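Raw counts per gene symbol, whole numbers with no normalization, were deposited by the authors in 1 table per day. Build mm10 and the tools STAR, Bowtie, bcl2fastq 2.20, R 4.2.1 and DESeq2 1.36.0 are named in the submitters' processing notes. How reads were counted, and whether by strand, is not given in the sources used here. Tables of days 14 and 21 share 24419 symbols, 25 of them turned into dates, which are never named.

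Tests used edgeR 4.0.16 in R 4.3.3 (TMM, filterByExpr with a minimum count of 10 and a total of 15, robust quasi-likelihood, 2-sided, Benjamini-Hochberg). SE is the absolute log2 fold change over the square root of F. The GC-adjusted fit puts each library's lowess trend (span 0.3) of log2 CPM on the median transcript GC (GENCODE vM21, 96.0% of genes) into the offsets. On simulated counts for day 21 against day 14 (12606 genes) edgeR recovered 73% of 2-fold and 89% of 4-fold changes and called 10 unchanged genes. With a simulated trend linear in GC it called 1866 unchanged genes and recovered 80% and 92%. The GC-adjusted fit then called 17 and recovered 70% and 87%. The changed genes were drawn without regard to GC, so this does not show how that fit does where real changes follow GC.

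The members, 49 gene lists and the rule for named genes were chosen with earlier results of these data known. The rule took the largest called changes in fold and CPM, up to 4 called members per list and 12 genes always given. It picked 154 genes, not all of which are given here, the large falls of Gt(ROSA)26Sor, Dnm3os and Zfp758 being left out. Outside it, Cxcl1, Il6st, Myc, Atf3, Csrnp1, Ier3, Nr4a2, Mcl1, Id3, Col12a1, Col8a1, Hspg2, Eln, Fbln2, Lamc1, Aspn, Plod2, Has2, Smoc2, Cd34, Fosl1, Ier2 and Col6a5 were named after their values were seen. Of 1297 list entries, 3 were not matched. Alternatives were other scalings, no filter, DESeq2 1.42.0, limma-voom (limma 3.58.1), more libraries in the fit, a replicate block and each library left out.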

Additional observations from a re-analysis of the deposited data

Results flagged for a closer look

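Cxcl13 stood at 73.5 CPM in day 26 sham replicate 4, while the other 3 day 26 libraries lay between 39.3 and 43.9 CPM. The gap to the nearest library was 0.87 of the group's range, above Dixon's 95% critical value for 4 samples. Of 20 genes looked at in this way, 1 met the rule, and chance gives about 1 in 20.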

How the results depend on the processing

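Between day 21 and day 14, the count of called genes stayed within 1.5 times of 2813 with library size only, RLE, no filter, DESeq2, limma-voom, 10 sham libraries in the fit and the replicate block (2685 genes with the block). It was 1204 with all 20 libraries in the fit, 756 with the GC adjustment, and 1681 to 2941 with 1 library left out. Of the 95 genes described, none changed direction under those settings other than the GC adjustment, except Pecam1 with 1 library left out (-0.17 to 0.58). With the GC adjustment Dcn (0.22), Aspn (0.17), Has2 (0.07), Cd55 (0.30) and Clock (0.06) changed sign and 17 others lost their call. For day 21 against the mean of days 14 and 26, the count was 199 with all 20 libraries, 168 with the GC adjustment, 363 to 1536 with 1 library left out, and 1267 with the replicate block, against 1258. The cause of these differences was not tested. Same-numbered day 14 and day 21 libraries did not deviate together (correlations 0.008, -0.028 and 0.001), and 1 of 3 day 14 libraries correlated best with its own number. The labels give no pairing by these numbers, and 3 libraries a day are too few to settle it. The block ended the calls of Il6st, Dcn, Cd55, Itga7, Zbtb20 and Fosl1. No call of the other genes ended with it, and Col1a2 gained one against the mean of days 14 and 26. Precision is limited by 3 libraries a group.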
